A study of Mus musculus with 12 samples.

Results

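The genes described here are 10 whose products hold back mTORC1, the growth-promoting protein kinase complex, or act next to it: Sesn1, Sesn2, Sesn3, Ddit4, Eif4ebp1, Eif4ebp2, Tsc1, Tsc2, Rragd and Flcn. They were chosen by symbol, and all 10 were found among the 15478 genes of the authors' deposited table. RNA was measured by poly-A sequencing in primary neural precursor cells, the dividing cells of the adult brain that can form neurons and glia, grown undifferentiated from female C57BL/6 mice 5 to 12 weeks of age. The groups were cells exposed to 100 µM H2O2 (hydrogen peroxide, an oxidant) for 1 h, cells exposed to 100 µM H2O2 for 8 h, and control cells given PBS (phosphate-buffered saline) as a sham exposure. Each group holds 4 samples, 12 in all, and every group was prepared from each of the same 4 animals, so all cells share strain, sex and culture state. When control cells were collected is not given in the sources here, so exposure and time in culture cannot be told apart.

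mTORC1 sits on the lysosome and, when amino acids and growth factors are plentiful, drives protein synthesis and blocks autophagy. Amino acids act through the Rag GTPases: the Sestrins (Sesn1, Sesn2, Sesn3) bind GATOR2 and keep the pathway off when leucine is low, and folliculin (Flcn) acts on the Rag pair that includes RagD (Rragd). Growth factors act through the TSC complex (Tsc1 and Tsc2), which turns off Rheb, the small GTPase that activates mTORC1, and Ddit4 (REDD1) holds mTORC1 back through that complex under stress. The translation repressors encoded by Eif4ebp1 and Eif4ebp2 stand downstream: mTORC1 phosphorylates them, which frees the cap-binding protein eIF4E. Folliculin is not a plain brake, since it helps mTORC1 act on some substrates while restraining growth elsewhere. Rragd likewise encodes a part of the activating machinery.

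The stretches before the transcription starts of Sesn2, Ddit4 and Sesn1 are shown because the first 2 were raised at both times while Sesn1, a close relative of Sesn2, was not. Each is read 5′ to 3′ on the gene's strand from the 250 bases before a RefSeq start site on build GRCm38.p6, without bases that GENCODE places in an exon, and matches to the searched motifs are in capitals. The Sesn2 stretch is chr4:132510502-132510706 on the minus strand and the Ddit4 stretch is chr10:59951835-59952020 on the minus strand. The Sesn1 stretch is chr10:41887189-41887438 on the plus strand, in an intron of the longest gene model and directly before the downstream one of its 2 start sites.
Sesn2: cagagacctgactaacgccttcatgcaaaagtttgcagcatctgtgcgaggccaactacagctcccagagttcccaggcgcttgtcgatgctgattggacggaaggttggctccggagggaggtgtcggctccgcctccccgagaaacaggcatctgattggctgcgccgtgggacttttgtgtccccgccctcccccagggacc
Ddit4: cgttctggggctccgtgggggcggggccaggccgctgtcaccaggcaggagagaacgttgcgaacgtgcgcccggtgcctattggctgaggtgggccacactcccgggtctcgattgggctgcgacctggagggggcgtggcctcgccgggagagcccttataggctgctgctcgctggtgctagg
Sesn1: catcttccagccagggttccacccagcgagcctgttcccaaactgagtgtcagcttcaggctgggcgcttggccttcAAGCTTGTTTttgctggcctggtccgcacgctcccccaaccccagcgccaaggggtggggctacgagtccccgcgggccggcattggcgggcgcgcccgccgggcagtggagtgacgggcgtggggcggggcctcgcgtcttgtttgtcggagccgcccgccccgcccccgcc
Motifs were searched on both strands of windows running from 250 bases before to 50 bases after each start: CACGTG (E-box), TGATGNAA (the C/EBP-ATF element bound by ATF4), TGACNNNGC (the antioxidant response element), GTAAACA (FOXO) and the p53 decamer. Windows were found for 9 of the 10 genes, 10 windows in all. Eif4ebp1 had no window, so its promoter was not searched. The Sesn2 window held 1 match, TGACAGAGC to the antioxidant response element, 36 bases before the RefSeq start and past the end of the stretch shown; 12.4% of all 32851 promoter windows hold such a match. The capitals in the Sesn1 stretch match the p53 decamer, 173 bases before that start, as 8.36% of windows do. Rragd held a p53 decamer match 246 bases before its start. The other Sesn1 window held a FOXO match, found in 3.65% of windows, 22 bases after its start on the opposite strand. E-box and C/EBP-ATF matches, in 7.15% and 3.97% of windows, were found in none of the 10 windows, and the Ddit4 window held a match to none of the 5 motifs. A match or its lack describes letters in these windows only.

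The deposited files hold the authors' comparisons and 0 columns of per-sample values, so no gene can be shown sample by sample. Which samples the authors left out as outliers, and so how many of the 4 a group entered each test, was not recorded in the labels or headers. Each change is given as the log2 fold change of the authors' deposited table with the standard error implied by its likelihood ratio. A gene is said to have risen or fallen where the Benjamini-Hochberg adjusted p of the authors' edgeR likelihood ratio test over all 15478 genes was under 0.05. Of 10 neural stem and progenitor markers, 10 were in the authors' deposited table, with mean levels between 4.11 and 11.97 log2 CPM (read counts scaled to library size). Oligodendrocyte markers were also present, 8 of 8, up to a mean of 10.27 log2 CPM. So were neuron markers, 8 of 8, up to 9.10, and astrocyte markers, 6 of 6, up to 9.26 log2 CPM. A mean of at least 1 log2 CPM was reached by 6 of the 8 neuron markers, and by all oligodendrocyte and astrocyte markers. Presence in the table thus does not single out neural precursors. Of 7 microglia markers 2 were in the table, and of 7 endothelial and mural markers 4 were, each below a mean of 1 log2 CPM. Summed marker levels for each group cannot be had from these files.

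At 1 h, 8 of the 10 genes passed the test, 5 higher and 3 lower, against 42.7% of all genes tested (20.5% higher, 22.2% lower) and 51.5% of genes with a mean of at least 4 log2 CPM, a level that all 10 genes reached. At 8 h, 7 passed, 4 higher and 3 lower, against 55.7% of all genes (27.4% higher, 28.2% lower) and 63.8% at that level. Between 8 h and 1 h of exposure, 6 passed, 3 higher and 3 lower, against 62.7% (30.3% higher, 32.4% lower) and 69.2%. The median log2 fold change of the 10 genes in the authors' deposited table was 0.09 at 1 h and -0.05 at 8 h, beside 0.01 and 0.01 over all genes. With a change of at least 1.5-fold also required, Sesn2 passed at 1 h (1 of 10, against 8.39% of all genes), Sesn2 and Eif4ebp1 at 8 h (2 of 10, against 17.8%), and Eif4ebp1 between 8 h and 1 h (1 of 10, against 21.5%). In bulk RNA, fewer cells of a type and less RNA per cell cannot be told apart. All 8 oligodendrocyte markers fell at 8 h in the authors' deposited table (median log2 fold change -0.84), and at 1 h 3 fell and 0 rose. Of 10 neural stem and progenitor markers, 3 fell and 1 rose at 1 h, and 6 fell and 3 rose (Nes, Egfr and Vim) at 8 h, in the authors' deposited table. Of 8 neuron markers 2 fell at 1 h, and 5 fell and 1 rose at 8 h. Of 6 astrocyte markers, 4 fell and 1 rose at each time, and of the 4 ependymal markers found, 2 rose and 0 fell at each time, in the authors' deposited table. The part of these marker changes in those of the 10 genes was not tested.

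**Figure D1:**
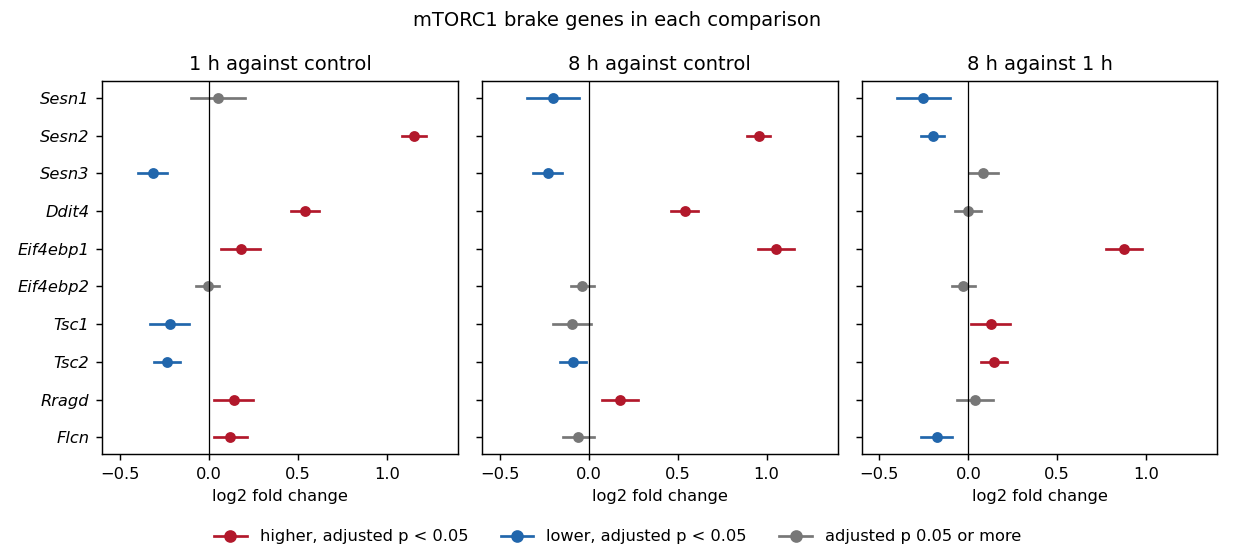
Log2 fold change of each of the 10 genes (x axis) in the authors' deposited table for 1 h against control, 8 h against control and 8 h against 1 h (left to right). Points are estimates, bars the 95% intervals from the implied standard error, and colours the direction and the test: Sesn2 and Eif4ebp1 stand past 1 on the axis at 1 h or 8 h, and Eif4ebp2 lies near 0 in each panel.

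The 3 Sestrins did not move together. Sesn2, which encodes a leucine sensor induced by several stresses, rose at 1 h by a log2 fold change of 1.16 ± 0.03 (implied SE), a 2.23-fold increase with a 95% interval of 2.13 to 2.33, in the authors' deposited table (adjusted p = 2.3e-245). Its likelihood ratio ranked 2 among the 15478 genes in that comparison. At 8 h Sesn2 was still raised, by 0.96 ± 0.03 on the log2 scale or 1.94-fold in the authors' deposited table (adjusted p = 1.7e-172), where it ranked 58. The level at 8 h was a little below that at 1 h, with a log2 difference of -0.20 ± 0.03 (adjusted p = 2.3e-09) in the authors' deposited table.

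Sesn3, a FOXO target in other cell types, went the other way. It fell at 1 h, with a log2 fold change of -0.31 ± 0.04 or 0.804 of the control level, in the authors' deposited table (adjusted p = 8.1e-13). At 8 h Sesn3 remained lower, at -0.23 ± 0.04 or 0.852 of control, in the authors' deposited table (adjusted p = 6.7e-08). The log2 difference between 8 h and 1 h was 0.08 ± 0.04 in the authors' deposited edgeR table (adjusted p = 0.066) and 0.09 ± 0.04 in their voom and limma table (adjusted p = 0.048), so that call turned on the table used.

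Sesn1, first known as the p53 target PA26, did not pass the test at 1 h in the authors' deposited table (log2 fold change 0.05 ± 0.08, adjusted p = 0.628). The 95% interval for that value, 0.933 to 1.15 of control, leaves out a rise of the size seen for Sesn2. At 8 h Sesn1 was lower than control, at -0.20 ± 0.07 on the log2 scale in the authors' deposited table (adjusted p = 0.015), and lower than at 1 h, at -0.25 ± 0.08 (adjusted p = 0.0018). Of the 13 p53 core and target genes listed, 10 rose and 1 fell at 1 h, and 12 rose and 0 fell at 8 h, in the authors' deposited table. Over all genes tested, 20.5% rose and 22.2% fell at 1 h, and 27.4% rose and 28.2% fell at 8 h. Pmaip1, which encodes the pro-apoptotic protein Noxa, gave the smallest p of the list at 1 h, with 2.14 ± 0.06 on the log2 scale in the authors' deposited table (adjusted p = 5.6e-304) and 1.95 ± 0.06 at 8 h. Whether p53 or another regulator acted on Sesn1, Sesn2, Ddit4 or the rest of the 10 genes was not tested.

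Ddit4, which a range of stresses induces, rose 1.45-fold at both times. The authors' deposited table gives a log2 fold change of 0.54 ± 0.04 at 1 h (adjusted p = 2.1e-40) and 0.54 ± 0.04 at 8 h (adjusted p = 5.2e-43). The difference between 8 h and 1 h had a 95% interval of 0.950 to 1.05 as a ratio in the authors' deposited table (adjusted p = 0.997). Its paralogue Ddit4l (REDD2), also an mTORC1 inhibitor, rose by a log2 fold change of 0.81 ± 0.04 at 1 h (adjusted p = 6.3e-93) and 1.08 ± 0.04 at 8 h (adjusted p = 1.2e-169) in the authors' deposited table. Ddit4l was higher at 8 h than at 1 h, by 0.26 ± 0.04 on the log2 scale, in the authors' deposited table. Trib3, a stress-induced pseudokinase that binds AKT, rose by 1.36 ± 0.20 at 1 h and 1.73 ± 0.19 at 8 h in the authors' deposited table, which made 3 of the 4 genes of this group higher at 1 h. The fourth, Grb10, an adaptor that mTORC1 phosphorylates, stood at 0.08 ± 0.11 at 1 h and rose at 8 h by 0.69 ± 0.09 in the authors' deposited table (adjusted p = 6.8e-13).

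Among the 4E-BP genes, Eif4ebp1 rose late. Its log2 fold change at 1 h was 0.18 ± 0.06 in the authors' deposited table, or 1.13-fold (adjusted p = 0.0039). By 8 h it reached 1.05 ± 0.05, or 2.08-fold with a 95% interval of 1.93 to 2.23, in the authors' deposited table (adjusted p = 1.4e-87). The direct comparison of 8 h with 1 h gave 0.87 ± 0.05, or 1.83-fold, in the authors' deposited table (adjusted p = 7.2e-61). Eif4ebp2, which encodes the form prominent in brain, passed the test in none of the 3 comparisons of the authors' deposited table. Its 95% interval as a ratio to control ran from 0.952 to 1.04 at 1 h and from 0.934 to 1.02 at 8 h in the authors' deposited table. The third family member, Eif4ebp3, with a mean of only -0.45 log2 CPM, rose at 8 h by 0.83 ± 0.33 (adjusted p = 0.024) in the authors' deposited table, and its value at 1 h was 0.49 ± 0.37 (adjusted p = 0.29).

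Both TSC genes fell at 1 h and lay nearer to control at 8 h. The authors' deposited table gives a log2 fold change of -0.22 ± 0.06 or 0.859 of control for Tsc1 at 1 h (adjusted p = 4.8e-04), and -0.23 ± 0.04 or 0.851 of control for Tsc2, the subunit with the GTPase-activating domain (adjusted p = 6.3e-09). At 8 h the authors' deposited table has Tsc1 at -0.09 ± 0.05, which did not pass (adjusted p = 0.132), and Tsc2 still lower at -0.09 ± 0.04 (adjusted p = 0.030). The 8 h level was above the 1 h level by a log2 difference of 0.15 ± 0.04 for Tsc2 (adjusted p = 2.1e-04) and 0.12 ± 0.06 for Tsc1 (adjusted p = 0.042) in the authors' deposited table. The Tsc1 difference had an adjusted p of 0.064 in their voom and limma table. Tbc1d7, the third subunit, passed the test at neither time in the authors' deposited table (-0.06 ± 0.07 at 1 h, 0.07 ± 0.06 at 8 h). Rheb, the GTPase the complex acts on, rose by 0.13 ± 0.05 at 1 h and 0.39 ± 0.05 at 8 h on the log2 scale in the authors' deposited table. Tsc2 overlaps Pkd1 on the opposite strand by 693 bases, and Pkd1 stood at -0.48 and -0.08 at 1 h and 8 h in the authors' deposited table. Neither labels nor headers give the strand setting of the counting, and the part of Pkd1 reads in the Tsc2 counts was not tested.

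Rragd and Flcn had the smallest changes of the 5 genes that rose at 1 h. In the authors' deposited table Rragd was higher by 0.14 ± 0.05 on the log2 scale at 1 h (adjusted p = 0.029) and 0.18 ± 0.05 at 8 h (adjusted p = 0.0017), with no call between 8 h and 1 h (adjusted p = 0.559). Flcn rose at 1 h by 0.12 ± 0.05 in the authors' deposited table (adjusted p = 0.024), and its value of -0.06 ± 0.04 at 8 h did not pass (adjusted p = 0.285). The 8 h level of Flcn was below the 1 h level, at -0.18 ± 0.05 on the log2 scale in the authors' deposited table (adjusted p = 2.0e-04). Folliculin's 2 partners went opposite ways: Fnip1 rose by 0.22 ± 0.05 at 1 h and 0.24 ± 0.05 at 8 h, and Fnip2 fell, at -0.27 ± 0.05 and -0.30 ± 0.05, in the authors' deposited table. Over the 12 Rag, Ragulator and folliculin genes, 3 rose and 2 fell at 1 h, and 4 rose and 1 fell at 8 h. For comparison, 42.7% of all genes tested were called at 1 h and 55.7% at 8 h. The other Rag genes called in the authors' deposited table were Rragb, lower at 1 h (-0.20 ± 0.06, and -0.12 ± 0.06 at 8 h), and Rraga and Rragc, higher at 8 h by 0.15 ± 0.04 and 0.16 ± 0.04 (0.09 ± 0.04 and 0.06 ± 0.05 at 1 h).

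The levels of the 10 genes, averaged by the authors over all samples and divided by exon length, differed widely. Ddit4 stood highest at 6.35 log2 CPM per kb, then Sesn2 at 6.11, Eif4ebp1 at 5.37 and Eif4ebp2 at 5.33, computed from the authors' deposited table. The other 6 ran from 3.89 for Tsc2 to 2.33 for Sesn1, beside a median of 2.37 over all genes. The 4 genes above 5 log2 CPM per kb thus include all 3 with the largest changes against control (Sesn2, Eif4ebp1 and Ddit4) and also Eif4ebp2, which passed no test. Among the Sestrins, Sesn2 stood above Sesn3 at 3.37 and Sesn1. No spread over samples can be given for these means, so the order of close neighbours such as Eif4ebp1 and Eif4ebp2 is not resolved.

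**Figure D2:**
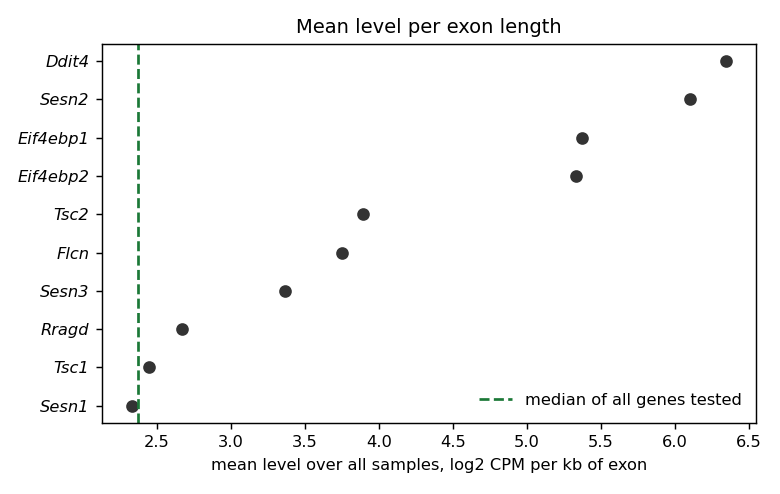
Mean level over all samples in log2 CPM per kb of summed exon length (x axis) for the 10 genes, from the authors' deposited table; the dashed line is the median of all genes tested, 2.37. Ddit4, Sesn2, Eif4ebp1 and Eif4ebp2 lie above 5, and Sesn1 lies just under the line.

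At 1 h, the change of a gene moved with its length on the genome. Over 11715 protein-coding genes with a mean of at least 1 log2 CPM, split into 8 equal groups by span, the authors' deposited table gives a median log2 fold change at 1 h of 0.10 in the shortest group and -0.26 in the longest. At 8 h the same groups had medians of 0.05 and -0.12. Read against genes of like span at 1 h, Sesn2 (18.5 kb) stood at percentile 99.5 of its group and Ddit4 (2.17 kb) at 93.7, from the authors' deposited table. Sesn3 (58.0 kb), Tsc2 (36.8 kb) and Tsc1 (49.9 kb) stood at percentiles 4.51, 5.81 and 13.7 of theirs. Sesn1, the longest of the 10 genes at 98.5 kb, stood 0.20 log2 units above the median of its group, which was -0.15, at percentile 84.9. Eif4ebp1, Rragd and Flcn lay between percentiles 73.8 and 81.9, and Eif4ebp2 at 41.4. The part of span in each gene's change was not tested.

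**Figure D3:**
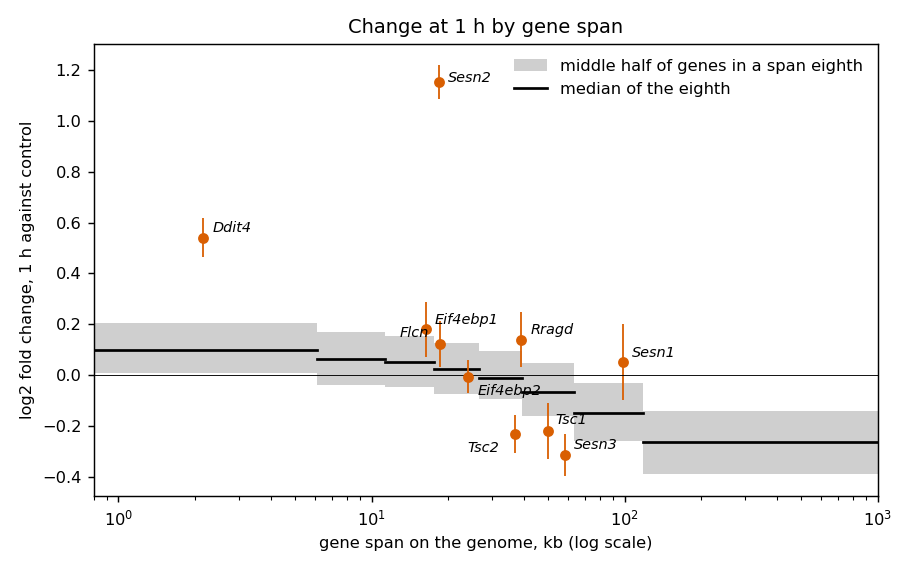
Log2 fold change at 1 h against control (y axis) by gene span in kb (x axis, log scale) from the authors' deposited table. Orange points are the 10 genes with 95% intervals, black lines the median and grey boxes the middle 50% of protein-coding genes in each of 8 span groups; Sesn2, Ddit4, Sesn1, Rragd and Eif4ebp1 lie above their boxes, Sesn3, Tsc1 and Tsc2 below theirs, and Eif4ebp2 and Flcn within theirs.

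All 10 genes are protein-coding in the GENCODE M21 models of GRCm38. Sesn2 is on chromosome 4 at 132492032 to 132510501 on the minus strand, with Rragd on the same chromosome at 32983037 to 33022180 on the plus strand. Chromosome 10 holds Sesn1 (41809935 to 41908424, plus), Ddit4 (59949669 to 59951834, minus) and Eif4ebp2 (61428491 to 61452661, minus). Sesn3 is on chromosome 9 at 14275067 to 14333101 (plus) and Eif4ebp1 on chromosome 8 at 27260329 to 27276674 (plus). Tsc1 is on chromosome 2 at 28641228 to 28691167 (plus), Tsc2 on chromosome 17 at 24595816 to 24632630 (minus), and Flcn on chromosome 11 at 59791408 to 59810016 (minus). Upstream neighbours were sought on the same strand among genes with a mean of at least 1 log2 CPM. The nearest to Sesn2, Atpif1 at 20.1 kb, had log2 fold changes of 0.13 and 0.05 at 1 h and 8 h in the authors' deposited table. Upstream of Ddit4, Anapc16 at 35.6 kb had 0.05 at both times in the authors' deposited table, so neither of these neighbours moved by the size of the gene beside it. Some of the other neighbours moved more. These others lay from 6.7 kb (Slc9a3r2) to 420 kb (Fam76b) upstream. At 1 h and 8 h, Plpbp (upstream of Eif4ebp1) had 0.43 and 0.39, Slc9a3r2 (Tsc2) 0.06 and 0.47, and Ralgds (Tsc1) -0.14 and -0.30. Macroh2a2 (Eif4ebp2) had 0.10 and -0.47, and Fam76b (Sesn3) 0.20 and -0.23. Cd164 (Sesn1) had -0.02 and 0.17, Lyrm2 (Rragd) 0.02 and 0.18, and Cops3 (Flcn) 0.10 and -0.10. Gm12981, a non-coding gene, lies within the span of Sesn2 over 6089 bases on the same strand and had log2 fold changes of 2.02 and 1.21 in the authors' deposited table, at a mean of 0.52 log2 CPM beside 7.90 for Sesn2. How reads in the shared stretch were counted is not recorded in the labels or headers, so the Gm12981 value is uncertain.

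The rest of the mTOR pathway was followed through 10 lists holding 76 further genes found in the authors' deposited table. At 1 h 11 of them rose and 30 fell (53.9% called, median log2 fold change -0.04), and at 8 h 25 rose and 18 fell (56.6%, median 0.03). Between 8 h and 1 h, 33 rose and 15 fell in the authors' deposited table (63.2%). Over all genes tested the called shares were 42.7%, 55.7% and 62.7% in the same 3 comparisons. Of the 76 genes, 3 changed by at least 1.5-fold at 1 h, 9 at 8 h and 5 between 8 h and 1 h. The shares of all genes tested that were called with such a change were 8.39%, 17.8% and 21.5%.

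Mtor and Rptor, which encode the kinase and its scaffold raptor, both fell at 1 h, at -0.36 ± 0.04 and -0.35 ± 0.04 on the log2 scale in the authors' deposited table. At 8 h Rptor was higher than control, by 0.21 ± 0.04, and Mtor lower, at -0.09 ± 0.04, in the authors' deposited table. Akt1s1, whose product PRAS40 inhibits mTORC1 by binding raptor, rose at both times, by 0.12 ± 0.04 and 0.22 ± 0.03, in the authors' deposited table. Of the 7 GATOR1 and KICSTOR genes, which turn the Rag GTPases off, 0 rose and 3 fell at 1 h in the authors' deposited table. At 8 h 2 of these rose and 1 fell, with Bmt2 (SAMTOR, a methionine sensor) at 0.40 ± 0.04, beside 0.10 ± 0.05 at 1 h (adjusted p = 0.069), in the authors' deposited table. Of the 12 GATOR2 and amino acid sensor genes, 3 rose and 3 fell at 1 h and 5 rose and 4 fell at 8 h, Sestrins included. The arginine sensor gene Castor1 and its paralogue Castor2 went opposite ways in the authors' deposited table: Castor1, at a mean of only 0.02 log2 CPM, rose by 1.15 ± 0.28 at 1 h and 0.78 ± 0.28 at 8 h, and Castor2 fell at 1 h (-0.19 ± 0.06) and 8 h (-0.56 ± 0.06).

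AMPK restrains mTORC1 when energy is low. Of the 9 genes found in the list of AMPK and its upstream kinase LKB1, 1 rose and 3 fell at 1 h, and 3 rose and 0 fell at 8 h. Prkaa2, a catalytic subunit, had a log2 fold change of 0.01 ± 0.07 at 1 h and rose by 0.93 ± 0.07 at 8 h in the authors' deposited table. Stk11, which encodes the upstream kinase LKB1, stood at -0.06 ± 0.05 at 1 h and rose by 0.30 ± 0.04 at 8 h in the authors' deposited table. Of the 15 PI3K and AKT genes, which carry the growth factor signal, 0 rose and 11 fell at 1 h, with the insulin receptor gene Insr at -0.35 ± 0.04, and -0.09 ± 0.04 at 8 h, in the authors' deposited table. At 8 h 4 rose and 6 fell, and the genes of the regulatory subunits Pik3r1 and Pik3r3 were lower, at -0.80 ± 0.04 and -0.53 ± 0.05, in the authors' deposited table. At 1 h Pik3r3 was lower as well (-0.21 ± 0.05) and Pik3r1 did not pass (-0.07 ± 0.04), in the authors' deposited table. The mTORC2 genes, which encode the other complex of the kinase, had 0 higher and 3 lower of 4 at each time, with Rictor at -0.24 ± 0.06 at 1 h and -0.39 ± 0.05 at 8 h in the authors' deposited table. Of 13 genes through which mTORC1 acts on translation, Eif4ebp1 and Eif4ebp2 among them, 3 rose and 4 fell at each time. Of these, the initiation scaffold gene Eif4g1 fell at 1 h (-0.26 ± 0.03) and stood at -0.01 ± 0.03 at 8 h, and the S6 kinase gene Rps6kb1 fell at both times (-0.18 ± 0.04 at 1 h, -0.29 ± 0.04 at 8 h), in the authors' deposited table. All of these lists were read in the same samples in which the oligodendrocyte markers fell at 8 h.

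**Figure D4:**
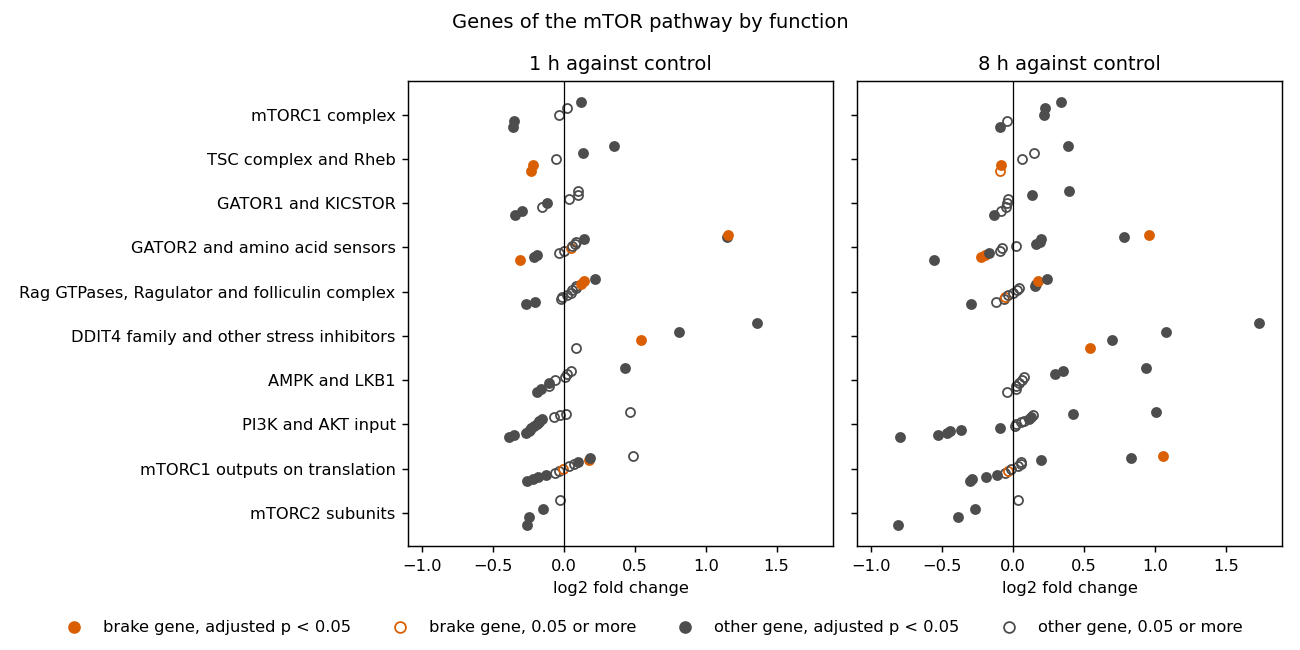
Log2 fold change (x axis) at 1 h and 8 h against control for genes of 10 mTOR pathway lists in the authors' deposited table, 1 point a gene, filled where the adjusted p is below 0.05 and orange for the 10 genes described. PI3K and AKT points lie mostly left of 0 at 1 h, and all 4 points of the DDIT4 family and other stress inhibitors lie right of 0 at both times.

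Regulators known to act on the 10 genes were listed as well. Of 14 ATF4 pathway genes, members or targets of the integrated stress response, 9 rose and 3 fell at 1 h in the authors' deposited table. At 8 h 10 rose and 2 fell. The shares over all genes tested were 20.5% higher and 22.2% lower at 1 h, and 27.4% and 28.2% at 8 h. Atf4 itself, which in mouse and human cells activates Sesn2, Ddit4 and Eif4ebp1, had a log2 fold change of 0.64 ± 0.04 at 1 h and 0.13 ± 0.04 (adjusted p = 0.0038) at 8 h in the authors' deposited table. Its target Asns, asparagine synthetase, rose by 0.19 ± 0.05 at 1 h and 0.86 ± 0.05 at 8 h, and the cystine transporter gene Slc7a11 by 0.84 ± 0.07 and 1.48 ± 0.07, in the authors' deposited table. Of 4 FOXO genes 2 rose and 1 fell at each time, and Foxo1 and Foxo3 were higher by 0.97 ± 0.07 and 0.70 ± 0.04 at 8 h in the authors' deposited table. At 1 h Foxo3 was higher by 0.22 ± 0.04 and Foxo1 stood at 0.03 ± 0.07 in the authors' deposited table. Sesn3, a FOXO target elsewhere, was lower at that time. Of the 3 MiT/TFE genes found, whose products activate Rragd and Flcn in other cells, 1 rose and 1 fell at 1 h, and 1 rose and 0 fell at 8 h. Mitf fell at 1 h (-0.46 ± 0.09, adjusted p = 9.7e-06) and stood at -0.06 ± 0.08 at 8 h, and Tfe3 rose by 0.11 ± 0.04 at 1 h (adjusted p = 0.018) and 0.29 ± 0.04 at 8 h, in the authors' deposited table.

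Genes of like time course were sought in the plane of the 1 h and 8 h log2 fold changes, among 11633 genes with a mean of at least 1 log2 CPM. Sesn2 had 1 gene within 0.1 log2 units, Sfn, followed by Pdk4 at 0.14 and Zfp874a at 0.16, from the authors' deposited table. Eif4ebp1 had 13 genes within that distance, the nearest being Ifngr2, Cyp4f17 and Klhdc1. Ddit4 had 18, led by Dffb, Armc7 and Ccdc173. Sesn1 lay in a crowded stretch, with 520 genes within 0.1 and Zbtb12, Ssr4 and Ppm1g nearest. Both axes share the control samples and likeness here is measured over 2 comparisons only. The distances take no account of standard errors. Of the genes named as near, Ccdc173, Pdk4 and Sfn had low means, of 1.17, 1.57 and 2.07 log2 CPM, while the highest was 7.56 for Ppm1g.

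The authors' deposited table of camera gene set tests on expression values places the hallmark set of mTORC1 signalling, 198 genes activated when mTORC1 is on, higher at 1 h (adjusted p = 0.046). Ranked by statistic in place of expression values, the same set had an adjusted p of 0.052 at 1 h in the authors' deposited table. At 8 h its adjusted p was 0.310, with direction up, in the authors' deposited table. The KEGG mTOR signalling pathway, 130 genes, had adjusted p-values of 0.150 at 1 h (down) and 0.139 at 8 h (up), and 0.026 between 8 h and 1 h (up), in the authors' deposited table. That last call was lost in the ranked form, with an adjusted p of 0.529 in the authors' deposited table. The other 5 of 7 mTOR sets, the hallmark set of PI3K, AKT and mTOR signalling and 4 Reactome sets, passed in no comparison in either form, with adjusted p from 0.113 to 0.999 in the authors' deposited tables. Neither labels nor headers give the correlation setting behind these tests.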

How the data were processed

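RNA of neural precursor cells was sequenced as poly-A libraries from a stranded kit, per the labels' protocols, and mapped to GRCm38, per the submitters' processing notes, which also name edgeR and limma. Reads were counted per gene with featureCounts and tested by the authors with edgeR generalised linear models and likelihood ratio tests, per the file headers. A second table comes from voom with sample weights and limma, per the file headers. Fold changes and mean levels are deposited in log2 units, the levels as log2 CPM over all samples. The deposited p-value columns hold raw and Benjamini-Hochberg adjusted values over 15478 genes. The likelihood ratio and the moderated statistics are deposited as a test statistic, a score. Other deposited columns, such as exon length, the authors' calls and set sizes, were used as given. Neither labels nor headers give the aligner, depth, design formula, strand setting or removed samples, so depth and its precision are unknown.

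No count test was refitted, since there were 0 columns of per-sample values. The design allowed for edgeR's quasi-likelihood test, and the authors' likelihood ratio test stands in its place. Where replicates are separate cultures of different animals, the test reads the spread between them, but the animal term of the authors' fit is unknown. The implied standard error is the absolute log2 fold change over the square root of the likelihood ratio, and 95% intervals are normal ones. Deposited adjusted p-values matched a recomputed adjustment to 1.3e-15. The arithmetic of the implied standard error and of the centring was checked on simulated fold changes. Those were drawn with normal errors of the implied size, so whether normal intervals suit these data was not tested. Gene models came from GENCODE M21 (15463 genes matched), promoter windows from RefSeq, and tables were handled with Python 3.11.15, pandas 2.3.3, numpy 2.4.6, scipy 1.17.1 and matplotlib 3.10.9.

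The 10 genes and 21 gene lists (161 of 172 genes found by symbol) were chosen with earlier results of these data known. All 10 genes are named. From each pathway list, up to 3 other genes with the smallest adjusted p at each time among those called could be named, with their values at the other time, along with genes needed to account for a count. Likeness was measured for Sesn1, Sesn2, Ddit4 and Eif4ebp1, and the 3 nearest genes named. Tbc1d7, Eif4ebp3, Rragc, 3 neural stem markers, Gm12981 and Pkd1 were named for their place beside the 10 genes after values were seen. Alternatives were the voom table, adjustment over genes with a mean of at least 1 log2 CPM, a threshold of 0.01, centring on the median gene, and a minimum change of 1.5-fold. Protein sequences were not analysed here. Some genes that the rule allows are not reported here.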

Additional observations from a re-analysis of the deposited data

Results flagged for a closer look

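For 6 of the 10 genes the effect of H2O2 differed between 8 h and 1 h by the authors' direct edgeR test in their deposited table (adjusted p under 0.05), beside 62.7% of all genes tested. Eif4ebp1 had a log2 difference of 0.87, the largest of the 6 in the authors' deposited table, and was higher than control at both times. Sesn1, at -0.25, and Flcn, at -0.18, were lower at 8 h than at 1 h in the authors' deposited table. Sesn2 was also lower at 8 h than at 1 h, at -0.20 in the authors' deposited table, while above control at both times. Tsc2 was higher at 8 h than at 1 h by 0.15 and Tsc1 by 0.12 on the log2 scale in the authors' deposited table, and the Tsc1 call was lost in the voom and limma table. Both exposures are compared with the same control samples. How far the control samples entered the direct test of 8 h against 1 h through the authors' fit is not recorded.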

How the results depend on the processing

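With a change of at least 1.5-fold also required, the number of the 10 genes called became 1 at 1 h against control (8 without it), 2 at 8 h against control (7) and 1 between 8 h and 1 h (6). In each comparison the other alternatives stayed within 1.5 times these counts. At an adjusted p under 0.01 the counts were 6, 5 and 5: Flcn and Rragd were lost at 1 h, Sesn1 and Tsc2 at 8 h, and Tsc1 between 8 h and 1 h. The voom and limma table called 8, 7 and 6, with Tsc1 lost and Sesn3 gained between 8 h and 1 h. Adjustment over genes with a mean of at least 1 log2 CPM gave 8, 7 and 6. Centring on the median gene gave 8, 7 and 5, again without Tsc1 (adjusted p = 0.088). Over 60 alternative values of single genes, 56 kept their direction and their side of the threshold, 2 lost the call and 1 gained it. The sign of 1 turned: Eif4ebp2 at 1 h, not called, had a log2 fold change of 0.0064 when centred on the median gene, beside -0.0066 without centring. No paired analysis was possible because the deposited files hold no values of single samples. For the same reason, leaving out each replicate in turn was not run, so the weight of any 1 sample or animal in these calls is unknown. Depth is unknown as well. The changes of Castor1, Eif4ebp3 and Gm12981 rest on mean levels below 1 log2 CPM.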
